A study of Mus musculus with 9 samples.

Results

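The 9 genes described here encode the enzymes that turn lanosterol into cholesterol, together with the cyclase that makes lanosterol: Lss, Cyp51, Tm7sf2, Msmo1, Nsdhl, Hsd17b7, Ebp, Sc5d and Dhcr7. They were picked by gene name among the protein-coding genes of the deposited count table, 9 of 56748 genes in all, and each of the 9 was among the 14510 genes that had enough counts to be tested. The cells were Hepa1-6, a mouse hepatoma line, and RNA-Seq was run on 3 groups of 3 libraries. Control cells received no drug according to the sample labels, whereas the study's methods call them vehicle controls. The other groups received 37 µg/mL lefamulin or 37 µg/mL tiamulin for 2 days, and no group carried a genetic change. Lefamulin is a pleuromutilin antibiotic used in people and tiamulin one used in animals. They share the pleuromutilin ring system and differ in the side chain that is joined to it through sulfur. The dose was matched by mass. The comparisons ask whether RNA levels of these enzymes differed after either drug, and whether the analogues differed from each other. RNA was measured in bulk, so less RNA per cell and fewer cells of a kind cannot be told apart.

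Cholesterol is built in the endoplasmic reticulum. The mevalonate arm makes squalene, which is oxidized and closed into lanosterol, the first sterol. The enzymes after lanosterol remove methyl groups from the ring system, and move and reduce double bonds. When sterol in the membrane falls, the escort protein Scap leaves Insig and carries the transcription factor SREBP2 to the Golgi, where SREBP2 is cleaved, and the freed part raises transcription of most genes of the route. In liver cells the product serves membranes, lipoproteins and bile acids.

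All 9 genes rose under lefamulin, by 1.27-fold to 1.82-fold, and 6 of 9 rose under tiamulin. Together they took 0.0767%, 0.0781% and 0.0821% of all counts in the control libraries, 0.114%, 0.116% and 0.115% after lefamulin, and 0.103%, 0.102% and 0.108% after tiamulin. Every treated library stood above every control in this sum. Over all genes tested, 7.09% were called higher and 6.00% lower under lefamulin, and 9.08% higher and 7.34% lower under tiamulin. Every treated library was above every control for the same 9 and 6 members, a pattern that 18.9% and 17.1% of all genes showed. With all libraries no member reached the absolute log2(fold change) above 1 that the study also required, which 1.51% and 1.78% of all genes did. Without control 3, Tm7sf2 passed it under both drugs, at 1.07 and 1.04. The drugs differed from each other in 1 member, Hsd17b7, which was lower under tiamulin than under lefamulin.

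Library totals ran from 15568887 to 18008105 counts, and the lowest count of a member in any library was 133, for Tm7sf2 in control 2. Of 8 hepatocyte markers, 5 reached 100 counts in a library (Alb, Afp, Trf, Hnf4a and Foxa2), while Apoa1 and Ttr had at most 6 counts in any library and Apoa2 had 8 to 40. The summed FPKM of these 8 markers was 733 to 802 in controls, 704 to 748 after lefamulin and 566 to 618 after tiamulin. Of the 5 abundant markers, Trf had a higher mean FPKM after both drugs (166, 201 and 176). The others were lower after both, such as Alb (207, 174 and 147) and Afp (284, 261 and 163). Of 4 leukocyte markers, Adgre1 and Cd3e were at 0 in all libraries, and the sum, nearly all Cd68, was 6.10 to 7.05 in controls, 8.004 to 12.4 after lefamulin and 11.3 to 15.7 after tiamulin. The 4 fibroblast markers, of which only Dcn was abundant, summed to 252 to 266, 192 to 201 and 177 to 191. The 3 endothelial markers summed to 0.198 to 0.267 in controls, 0.402 to 0.628 after lefamulin and 0.441 to 0.723 after tiamulin. None of them reached 100 counts in a library. Pecam1 alone carried the rise (mean FPKM 0.192, 0.471 and 0.506), while Cdh5 and Kdr had at most 2 and 8 counts in any library. The 3 cholangiocyte markers summed to 4.404 to 4.75, 4.97 to 5.40 and 4.85 to 5.48. Among them mean Krt7 was higher after the drugs (1.35, 1.94 and 2.28) and mean Epcam was not (3.24, 3.15 and 2.92). The part of these shifts in the results was not tested. Tiamulin 2 stood apart from tiamulin 1 and 3, with a chi-square per degree of freedom of 18.1 and 20.6 against 2.88 to 7.57 for all other pairs within a group. Deviations from the group mean followed the GC content of transcripts most in tiamulin 2 (Spearman's rho 0.684 across 10579 genes, which are not independent replicates). Deviations from a group mean cancel within the group, so a trend in 1 library forces an opposite trend among the others. The values of tiamulin 1 (-0.523) and tiamulin 3 (-0.563) are thus not separate findings. The same holds for control 1 (0.485) against control 2 (-0.482). Because tiamulin 2 stood apart, tiamulin results are also given without it.

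**Figure D1:**
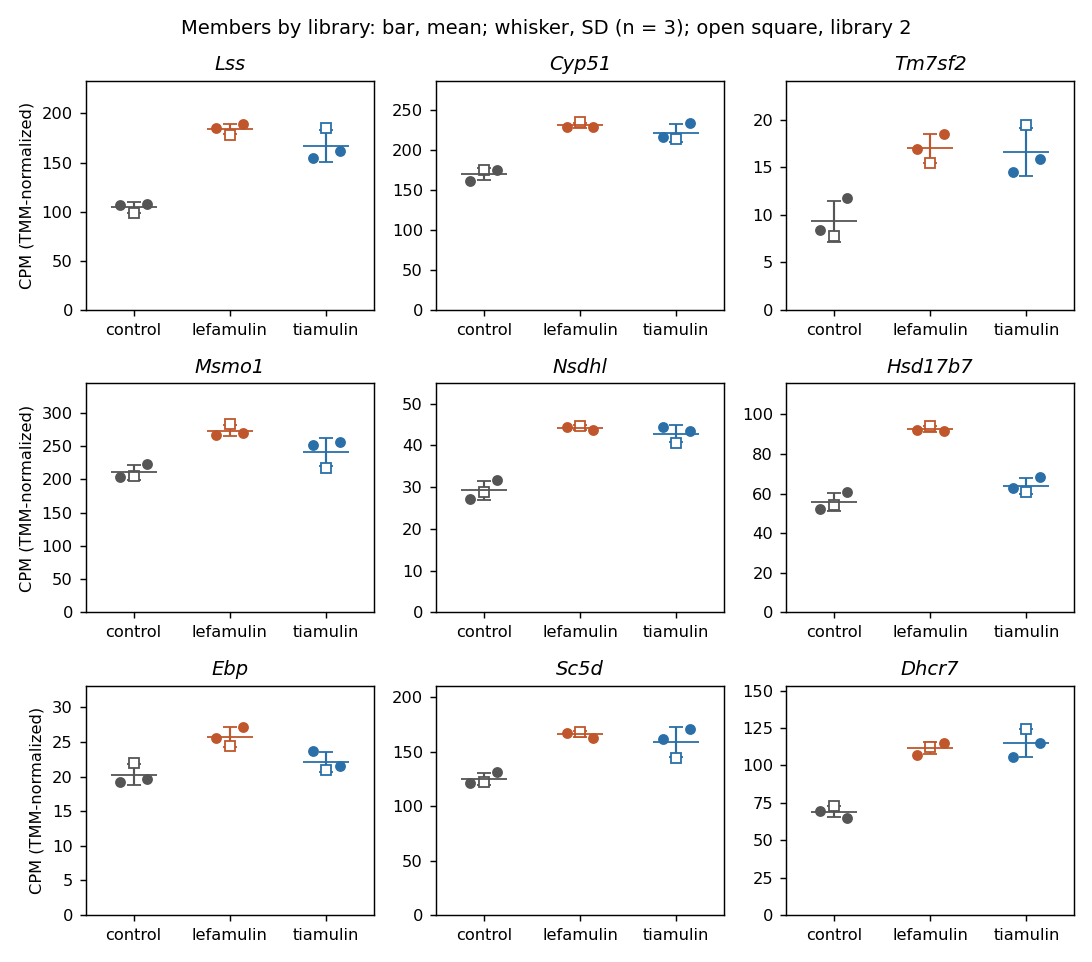
CPM per library for the 9 genes, by group, with the mean (bar) and the SD (whisker, n = 3), and library 2 of each group drawn as an open square. All 3 lefamulin libraries stood above all 3 controls in each of the 9 panels, and the tiamulin points overlapped the controls for Msmo1, Hsd17b7 and Ebp.

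The promoters of the 9 genes were read as a planned description, without a test. RefSeq lists 11 annotated starts for the 9 genes in GRCm38.p6, of which 3 belong to Dhcr7, and each promoter runs from 250 bases before the start to 50 after it. CCAAT, the box bound by NF-Y, was found on either strand in 9 of 11 promoters and at least once for each of the 9 genes, against 37.4% of all 32851 promoters and 38.1% of the 12078 promoters of tested coding genes. GGGCGG, the GC box bound by Sp1, was in 10 of 11, against 35.7% and 62.1%. Both factors are known to act beside SREBP2 on sterol genes. The classical sterol element, searched as TCACNCCAC, was in 0 of 11, against 1.24% and 1.22%. A looser form chosen after the promoters had been seen, TCACNNCA, was in 7 of 11 and in 6 of the 9 genes, against 13.8% and 11.3%. These matches are letters in a window and were not measured as sites. The CCAAT box nearest upstream of a start is shown for each gene, 5′ to 3′ on the gene's own strand, with the box in capitals. ATTGG is the box on the other strand.
Lss: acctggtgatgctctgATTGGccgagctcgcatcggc
Cyp51: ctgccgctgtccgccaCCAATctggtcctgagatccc
Tm7sf2: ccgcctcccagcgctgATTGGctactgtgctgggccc
Msmo1: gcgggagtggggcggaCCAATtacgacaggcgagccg
Nsdhl: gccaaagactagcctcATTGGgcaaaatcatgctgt
Hsd17b7: gccgggccgagccttgATTGGtcgaggt
Ebp: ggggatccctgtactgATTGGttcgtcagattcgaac
Sc5d: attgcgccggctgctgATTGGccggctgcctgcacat
Dhcr7: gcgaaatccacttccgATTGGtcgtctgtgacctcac

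With the start counted as 0, these windows lie in GRCm38.p6 at Lss chr10:76531527-76531563 (plus strand, box from -62), Cyp51 chr5:4104706-4104742 (minus strand, box from -29) and Tm7sf2 chr19:6067877-6067913 (minus strand, box from -47). The windows of the demethylation enzymes are Msmo1 chr8:64733613-64733649 (minus strand, box from -55), Nsdhl chrX:72918485-72918520 (plus strand, box from -20) and Hsd17b7 chr1:169969206-169969233 (minus strand, box from -12). Those of the last enzymes are Ebp chrX:8193547-8193583 (minus strand, box from -55), Sc5d chr9:42264304-42264340 (minus strand, box from -24) and Dhcr7 chr7:143830149-143830185 (plus strand, box from -49). The boxes shown begin between 62 and 12 bases before the start. The looser sterol motif is shown for the 5 genes that have a match wholly upstream of a start, 1 match per gene, with the motif in capitals.
Cyp51: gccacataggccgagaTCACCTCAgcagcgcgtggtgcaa
Msmo1: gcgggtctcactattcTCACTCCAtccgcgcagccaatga
Hsd17b7: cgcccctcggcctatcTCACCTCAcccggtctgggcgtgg
Sc5d: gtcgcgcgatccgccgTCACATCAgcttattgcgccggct
Dhcr7: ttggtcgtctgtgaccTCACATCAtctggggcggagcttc

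These lie at Cyp51 chr5:4104762-4104801 (motif from -88), Msmo1 chr8:64733732-64733771 (motif from -177) and Hsd17b7 chr1:169969299-169969338 (motif from -117), all on the minus strand. The others are Sc5d chr9:42264329-42264368 (motif from -52), on the minus strand, and Dhcr7 chr7:143830166-143830205 (motif from -32), on the plus strand. Msmo1 has a further match from -92, whose first base is also the last base of a CCAAT box, and Dhcr7 has a further match at another start, from -130. The match of Nsdhl crosses its start. Lss, Tm7sf2 and Ebp hold none in these windows.

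**Figure D2:**
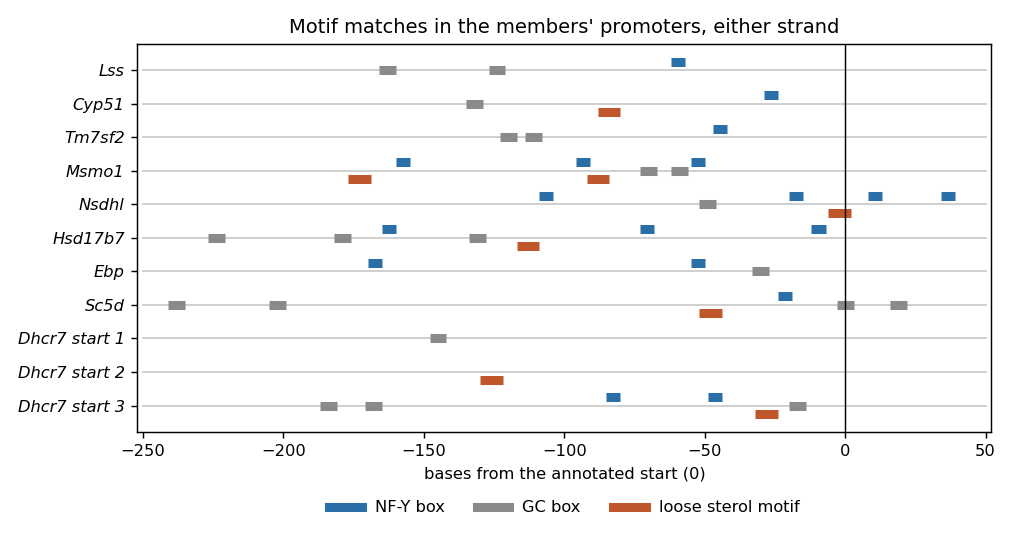
Matches of CCAAT (NF-Y box), GGGCGG (GC box) and TCACNNCA (loose sterol motif) on either strand in the 11 promoters, by distance in bases from the annotated start at 0. A CCAAT box lies upstream of a start of each of the 9 genes, and Dhcr7 start 2 has neither CCAAT nor GGGCGG.

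The first steps rose under both drugs. Lss (ENSMUSG00000033105, chromosome 10), the cyclase that folds oxidized squalene into lanosterol, had 107, 98.4 and 108 CPM (counts scaled to the TMM-normalized library total) in controls 1, 2 and 3. It had 185, 179 and 189 CPM after lefamulin and 154, 185 and 162 after tiamulin. All 6 treated libraries stood above all controls, and tiamulin 2 reached the lefamulin range. The change was 1.77-fold under lefamulin (log2(fold change) 0.82, SE 0.07, edgeR adjusted p = 4.40e-06) and 1.60-fold under tiamulin (log2(fold change) 0.68, SE 0.07, edgeR adjusted p = 1.75e-05). Lss overlaps a long non-coding RNA gene on the other strand, 4930483K19Rik, and the strand used in counting is not given in the sources used here. Cyp51 (ENSMUSG00000001467, chromosome 5), the P450 that removes the first methyl group from lanosterol, had 161, 175 and 174 CPM in controls, 229, 235 and 229 after lefamulin and 216, 213 and 234 after tiamulin. No treated library overlapped with the controls, and the ranges of the treated groups overlapped. Cyp51 shares 166 bases with Akap9 on the other strand. Its change was 1.36-fold (log2(fold change) 0.44, SE 0.06, edgeR adjusted p = 0.000161) under lefamulin and 1.30-fold (log2(fold change) 0.38, SE 0.06, edgeR adjusted p = 0.000429) under tiamulin.

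Tm7sf2 (ENSMUSG00000024799, chromosome 19), a reductase for the ring double bond that Cyp51 leaves, was the least abundant member and had the widest spread. Its CPM was 8.43, 7.74 and 11.7 in controls, 16.9, 15.5 and 18.5 after lefamulin and 14.5, 19.4 and 15.9 after tiamulin. The lowest treated library was above the highest control, by 14.5 against 11.7 CPM. The rise was 1.82-fold (95% interval 1.45 to 2.30, edgeR adjusted p = 0.00212) under lefamulin and 1.78-fold (1.41 to 2.25, edgeR adjusted p = 0.0021) under tiamulin. Tm7sf2 shares 532 bases with Vps51 on the same strand. Lbr, a nuclear envelope protein that carries out the same reduction, had 159, 146 and 158 CPM in controls, 153, 151 and 153 after lefamulin and 150.5, 164 and 153 after tiamulin. Lbr did not pass the test under either drug. Its 95% interval of the fold change ran from 0.905 to 1.07 for lefamulin and from 0.928 to 1.10 for tiamulin.

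The 3 enzymes that strip the remaining methyl groups all rose under lefamulin, and 1 of them rose under tiamulin. Msmo1 (ENSMUSG00000031604, chromosome 8), the oxidase that starts this round, had 204, 205 and 224 CPM in controls, 267, 282 and 269 after lefamulin and 251, 217 and 256 after tiamulin. Lefamulin stood clear of the controls, while tiamulin 2 lay inside the control range. The rise under lefamulin was 1.29-fold (log2(fold change) 0.37, SE 0.07, edgeR adjusted p = 0.00214), and tiamulin gave 1.15-fold (log2(fold change) 0.20, SE 0.07, edgeR adjusted p = 0.0616), which missed the threshold. Nsdhl (ENSMUSG00000031349, chromosome X), the dehydrogenase that removes the oxidized carbon, had 27.1, 28.8 and 31.8 CPM in controls, 44.5, 44.6 and 43.7 after lefamulin and 44.4, 40.7 and 43.6 after tiamulin. It rose under both, with no overlap with the controls, by 1.52-fold (log2(fold change) 0.60, SE 0.08, edgeR adjusted p = 0.00018) and 1.47-fold (log2(fold change) 0.55, SE 0.08, edgeR adjusted p = 0.000275).

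Hsd17b7 (ENSMUSG00000026675, chromosome 1), the ketone reductase that closes the round, had 52.4, 54.2 and 60.9 CPM in controls. It had 91.9, 94.2 and 91.7 CPM after lefamulin and 62.7, 60.6 and 68.3 after tiamulin. Lefamulin libraries stood far above the rest, whereas tiamulin 2 lay just under the highest control. The rise was 1.66-fold under lefamulin (log2(fold change) 0.73, SE 0.07, edgeR adjusted p = 1.48e-05). Under tiamulin the value was 1.14-fold (log2(fold change) 0.19, SE 0.07, edgeR adjusted p = 0.0855), which missed the threshold. Erg28, a scaffold protein that holds these enzymes together, had 19.1, 19.6 and 18.4 CPM in controls, 27.7, 28.1 and 27.5 after lefamulin and 22.3, 22.1 and 22.9 after tiamulin. It rose under lefamulin (log2(fold change) 0.54, SE 0.08, edgeR adjusted p = 0.000426) and missed the threshold under tiamulin (log2(fold change) 0.24, SE 0.08, edgeR adjusted p = 0.0593), although all 3 tiamulin libraries were above all controls. Erg28 passed under tiamulin with GC and length offsets (edgeR adjusted p = 0.0313, and 0.0449 with the replicate block added) and with limma on FPKM (0.0268 and 0.0259).

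The last steps held the member with the smallest change and one of the most changed. Ebp (ENSMUSG00000031168, chromosome X), the isomerase that moves the ring double bond, had 19.2, 22.0 and 19.6 CPM in controls, 25.6, 24.4 and 27.1 after lefamulin and 23.7, 20.9 and 21.5 after tiamulin. Lefamulin libraries stood above the controls, by 24.4 against 22.0 CPM at the nearest, and tiamulin overlapped the controls. The lefamulin call (log2(fold change) 0.34, SE 0.09, edgeR adjusted p = 0.0244) was the weakest of the 9 and was lost without control 1 (adjusted p = 0.101), control 3 (0.104), lefamulin 1 (0.0682) or lefamulin 3 (0.105) in edgeR. Under tiamulin Ebp gave 1.09-fold (95% interval 0.948 to 1.25, edgeR adjusted p = 0.416). Sc5d (ENSMUSG00000032018, chromosome 9), the desaturase that adds a ring double bond, had 121, 123 and 131 CPM in controls, 167, 168 and 163 after lefamulin and 162, 144 and 171 after tiamulin. It rose 1.33-fold (log2(fold change) 0.41, SE 0.07, edgeR adjusted p = 0.000948) and 1.27-fold (log2(fold change) 0.35, SE 0.07, edgeR adjusted p = 0.00229), with every treated library above every control.

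Dhcr7 (ENSMUSG00000058454, chromosome 7) makes cholesterol by reducing the double bond that its direct precursor still carries, and loss of this enzyme causes Smith-Lemli-Opitz syndrome in people. It had 69.4, 72.6 and 65.1 CPM in controls, 107, 112 and 115 after lefamulin and 106, 125 and 115 after tiamulin. No treated library came near the controls, and the treated groups overlapped. The rise was 1.62-fold (log2(fold change) 0.69, SE 0.07, edgeR adjusted p = 2.14e-05) under lefamulin and 1.67-fold (log2(fold change) 0.74, SE 0.07, edgeR adjusted p = 8.45e-06) under tiamulin.

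**Figure D3:**
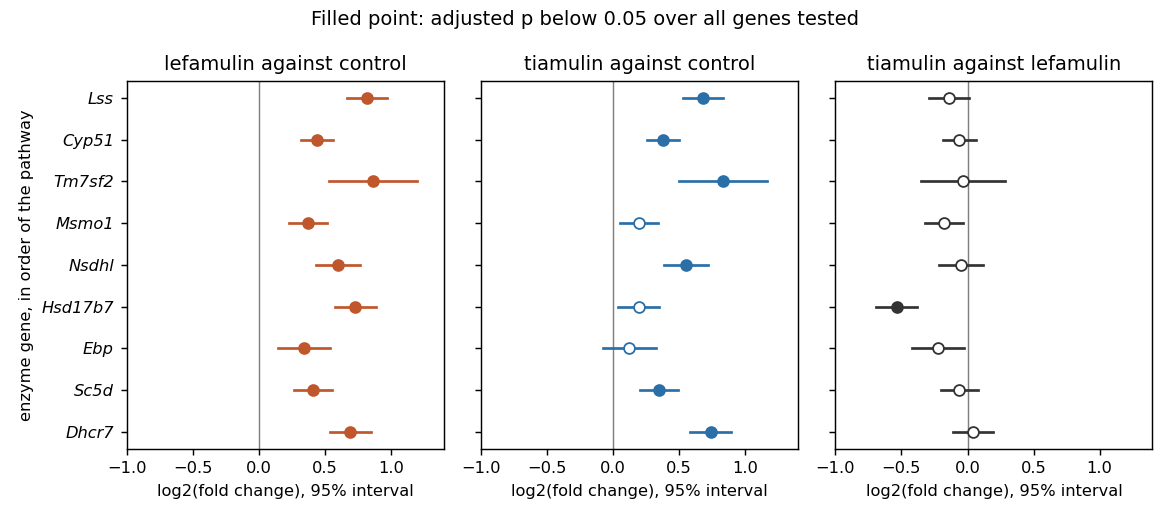
log2(fold change) of the 9 genes with 95% intervals in the comparisons of each drug with control and of tiamulin with lefamulin, filled where the adjusted p was below 0.05. All 9 points are filled and between 0.34 and 0.87 under lefamulin, 6 are filled under tiamulin, and only Hsd17b7 is filled between the drugs, at -0.54.

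Tiamulin 2 was the highest of the 3 tiamulin libraries for 3 members, Lss, Tm7sf2 and Dhcr7, and the lowest for the other 6. Without tiamulin 2 the calls under tiamulin numbered 8 in place of 6. Msmo1 then had a log2(fold change) of 0.27 (edgeR adjusted p = 0.00012) and Hsd17b7 0.23 (0.0133). Both values stayed below those under lefamulin. Lss moved to 0.60, Tm7sf2 to 0.70 and Dhcr7 to 0.68, and each stayed called. Cyp51 moved to 0.40, Nsdhl to 0.59 and Sc5d to 0.41, also called, while Ebp at 0.16 was not. When GC content and length entered the fit as offsets and all 9 libraries were kept, the same 8 genes passed. Calls over all genes under tiamulin rose too, from 2383 to 3433 without tiamulin 2 and to 3897 with the offsets, which is 1.44 and 1.64 times as many.

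The direct test of the analogues, at equal dose and time, was a single pair of compounds with p values adjusted over all 14510 genes. Of the 9 enzymes, 1 was lower under tiamulin and 0 were higher, beside 2.05% and 2.85% of all genes. The gene that was lower was Hsd17b7, at 0.69 times its lefamulin level (95% interval 0.62 to 0.768, log2 difference -0.54, SE 0.07, edgeR adjusted p = 0.00104). The groups were separated by 91.9, 94.2 and 91.7 against 62.7, 60.6 and 68.3 CPM. The difference was -0.50 without tiamulin 2, and between -0.59 and -0.50 when any 1 library was left out. All tiamulin libraries were also below all lefamulin libraries for Msmo1 and Ebp, a pattern that 12.9% of genes showed. Their log2 differences were -0.18 (95% interval -0.32 to -0.03, edgeR adjusted p = 0.145) and -0.22 (-0.42 to -0.02, edgeR adjusted p = 0.181), which missed the threshold after adjustment. Without tiamulin 2 these differences were -0.11 for Msmo1 (edgeR adjusted p = 0.181) and -0.19 for Ebp (edgeR adjusted p = 0.274). No member passed an absolute log2 difference of 1, which 0.227% of all genes did.

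For the other 6 genes the intervals of the tiamulin to lefamulin ratio included 1. They were 0.881 to 1.04 for Cyp51, 0.862 to 1.09 for Nsdhl, 0.869 to 1.06 for Sc5d and 0.929 to 1.14 for Dhcr7. Tm7sf2, with the fewest counts, had the widest interval, 0.783 to 1.22. Lss had 0.817 to 1.01 with all libraries and was called lower without tiamulin 2, at -0.22 (edgeR adjusted p = 0.0069). Over the 9 fits that left out 1 library its log2 difference ran from -0.22 to -0.086 (adjusted p 0.0069 to 0.543). The call was gained in 1 of these fits. With GC and length offsets both Lss (-0.20) and Msmo1 (-0.17) were called lower beside Hsd17b7, in a fit that raised the calls between the drugs from 711 to 1904 over all genes, 2.68 times as many. These intervals leave room for differences between the drugs, and they do not show that the drugs act alike on these genes.

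Levels per gene length were compared in FPKM. In controls Cyp51 was highest, at 38.4 ± 1.68 (SD, n = 3), ahead of Msmo1 at 34.1 ± 1.77 and Sc5d at 25.6 ± 1.07. Dhcr7 (11.8 ± 0.656), Hsd17b7 (10.9 ± 0.857), Nsdhl (10.2 ± 0.82), Lss (9.63 ± 0.477) and Ebp (8.73 ± 0.662) followed, and each overlapped its neighbour in this order. Tm7sf2 was lowest at 2.10 ± 0.479. The top 3 and the last kept their places under both drugs. After lefamulin Dhcr7 (19.1 ± 0.709) and Hsd17b7 (18.0 ± 0.271) followed at ranks 4 and 5, with overlapping ranges, ahead of Lss (17.0 ± 0.491). After tiamulin Hsd17b7 stood at rank 7, at 12.5 ± 0.743, behind Nsdhl at 14.9 ± 0.604. FPKM divides by the deposited length of a gene, which sums all its exons and was longest for Lss, at 10787 bases, so a gene whose main transcript is short is understated. The order depends on this unit. By CPM, which does not divide by length, the control rank of 6 of the 9 genes differed, with Msmo1 at rank 1, Cyp51 at 2 and Lss at 4 in place of 7.

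**Figure D4:**
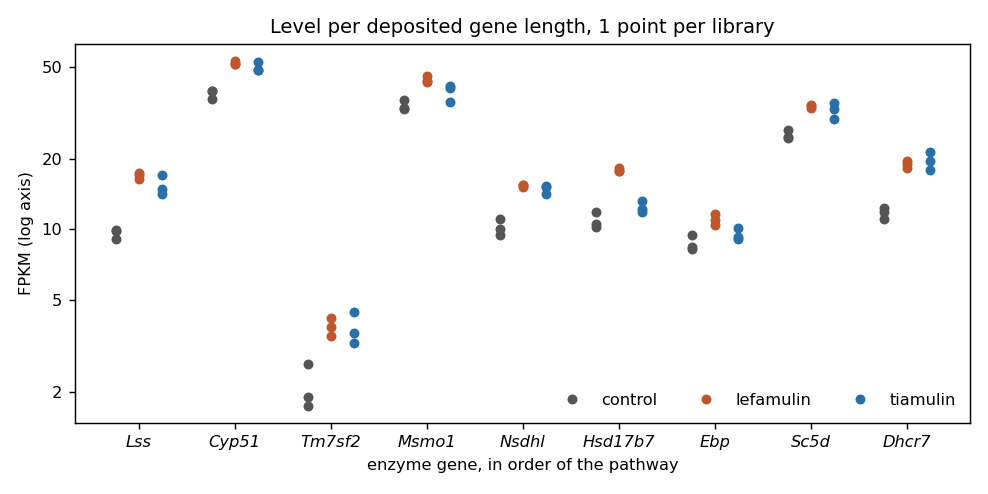
FPKM of each library on a log axis for the 9 genes in the order of the pathway, coloured by group. Cyp51 lay highest and Tm7sf2 lowest in each group. The lefamulin points stood above the tiamulin points for Hsd17b7, Msmo1 and Ebp, with the widest gap for Hsd17b7.

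Upstream of lanosterol, all 9 reported genes of the mevalonate and squalene arm rose under both drugs, against 7.09% and 9.08% of all genes. Mvd, the decarboxylase of the arm, had the largest log2(fold change) of the arm, and with all libraries it was the 1 gene of the arm past 1. It had 22.3, 19.2 and 20.7 CPM in controls, 43.8, 40.7 and 44.4 after lefamulin and 40.1, 53.7 and 42.4 after tiamulin, a log2(fold change) of 1.05 and 1.13 (edgeR adjusted p = 2.07e-05 and 7.48e-06). Fdps, which joins isoprene units, rose by 0.98 and 0.90, and Acat2, which starts the arm, by 0.83 and 0.82, all on the log2 scale. Pmvk rose by 0.53 and 0.67, and Fdft1, the squalene synthase, by 0.48 and 0.57. Sqle, the squalene epoxidase, rose by 0.36 and 0.25. Without tiamulin 2 the tiamulin values were 0.99 for Mvd, no longer past 1, 0.93 for Fdps, 0.87 for Acat2, 0.70 for Pmvk, 0.56 for Fdft1 and 0.21 for Sqle, and each stayed called. Fdps under lefamulin was past 1 without control 3 or lefamulin 3 and lay between 0.90 and 1.08 when any 1 library was left out. The median over these 9 genes was 0.53 under lefamulin and 0.57 under tiamulin, beside 0.60 and 0.38 for Lss to Dhcr7 and -0.0018 and 0.0034 for all genes. None of the 9 genes of the arm differed between the drugs by the test, which is near the shares over all genes, 2.85% higher and 2.05% lower. Idi1, named after its values were seen, came nearest. Its log2 difference was -0.28 (95% interval -0.47 to -0.09, edgeR adjusted p = 0.0871), with all tiamulin libraries below all lefamulin libraries.

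Of 8 tested proteins that serve the enzymes or stand in for them, 3 rose under lefamulin and 1 under tiamulin, and 0 fell. Over all genes 7.09% and 9.08% were called higher and 6.00% and 7.34% lower, so that the count under tiamulin is near the background. Pgrmc1, a haem-binding partner of P450 enzymes, rose under both (0.37 and 0.33 on the log2 scale, the latter 0.37 without tiamulin 2). Without tiamulin 2, Lbr, Erg28 and Cyb5b had -0.02, 0.25 and 0.08 under tiamulin, none of them called. Cyb5b, an outer mitochondrial membrane cytochrome, had 359.7, 375 and 377 CPM in controls, 436, 446 and 459 after lefamulin and 386, 358 and 397 after tiamulin, rising under lefamulin (log2(fold change) 0.27, SE 0.05, edgeR adjusted p = 0.00401) and passing no threshold under tiamulin (log2(fold change) 0.04, SE 0.05, edgeR adjusted p = 0.689). It was lower under tiamulin than under lefamulin in the direct test (log2(fold change) -0.23, SE 0.05, edgeR adjusted p = 0.024), as was Erg28 (log2(fold change) -0.31, SE 0.08, edgeR adjusted p = 0.0398). The call for Cyb5b was lost without control 3, tiamulin 1 or any 1 lefamulin library, with adjusted p values of 0.00323 to 0.126 over the 9 fits that left out a library. That for Erg28 was lost without any library but tiamulin 2, at 0.0395 to 0.142.

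Of 12 genes of SREBP2 control and sterol uptake, 3 rose and 2 fell under lefamulin, and 3 rose and 1 fell under tiamulin. Over all genes the shares were 7.09% higher and 6.00% lower under lefamulin, and 9.08% higher and 7.34% lower under tiamulin, the last close to 1 of 12. Insig1, a sterol-sensitive retention protein and itself an SREBP target, had 57.4, 57.2 and 57.3 CPM in controls, 96.7, 95.9 and 89.7 after lefamulin and 73.4, 81.2 and 83.8 after tiamulin. It rose under both (0.72 and 0.47 on the log2 scale) and was lower under tiamulin than under lefamulin (log2(fold change) -0.24, SE 0.07, edgeR adjusted p = 0.0486), a call lost without any 1 library except tiamulin 2 or tiamulin 3 (adjusted p 0.00914 to 0.181). Npc2, a lysosomal cholesterol carrier, rose under both (0.41 and 0.53). Npc1, its membrane partner, had 137, 130.4 and 129.9 CPM in controls, 142, 144 and 142 after lefamulin and 187, 202 and 184 after tiamulin. It rose under tiamulin (log2(fold change) 0.53, SE 0.06, edgeR adjusted p = 2.21e-05), did not pass under lefamulin (log2(fold change) 0.11, SE 0.06, edgeR adjusted p = 0.242) except with GC and length offsets (0.0315, and 0.047 with the replicate block added), and was higher under tiamulin than under lefamulin (log2(fold change) 0.42, SE 0.06, edgeR adjusted p = 0.00104).

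Stard4, a sterol transfer protein, rose under lefamulin (log2(fold change) 0.38, SE 0.07, edgeR adjusted p = 0.00378) and missed the threshold under tiamulin (log2(fold change) 0.18, SE 0.07, edgeR adjusted p = 0.126), where it passed without tiamulin 2 (0.00147) and with GC and length offsets (0.0139). Srebf2, which encodes SREBP2, had 406, 337 and 376 CPM in controls, 352, 342 and 357 after lefamulin and 367, 493 and 374 after tiamulin. It passed in neither comparison (-0.09, edgeR adjusted p = 0.605, and 0.14, 0.373), and tiamulin 2 was its highest library. Srebf1, which encodes SREBP1, fell by 0.56 under lefamulin (edgeR adjusted p = 0.0114) and by 0.46 under tiamulin (0.0249) on the log2 scale. The tiamulin call of Srebf1 was lost without control 1 (0.0831), control 3 (0.0711), tiamulin 1 (0.0853) or tiamulin 3 (0.089), with the groups compared alone (0.063) and with limma (0.0567 and 0.0558). Mbtps1, a protease that releases SREBP, also fell under lefamulin (log2(fold change) -0.33, SE 0.08, edgeR adjusted p = 0.0166), and was named after its values were seen. Without tiamulin 2 the tiamulin values were 0.46 for Insig1, 0.48 for Npc1, 0.59 for Npc2, 0.25 for Stard4 and -0.66 for Srebf1, all called, and -0.01 for Srebf2, which was not. Both drugs were compared with the same 3 controls, so values that move in both are not independent.

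**Figure D5:**
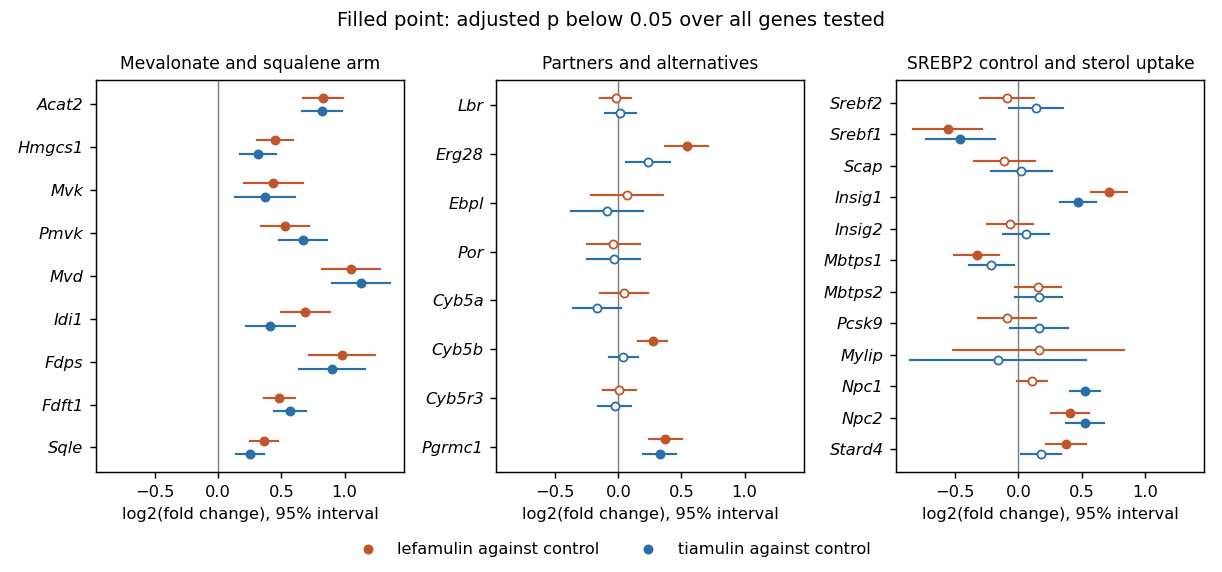
log2(fold change) with 95% intervals for the mevalonate and squalene arm, the partners and alternative enzymes, and SREBP2 control and sterol uptake, under each drug against control, filled where the adjusted p was below 0.05. All 9 genes of the first panel are filled under both drugs, and Lbr lies at -0.02 and 0.01.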

How the data were processed

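RNA-Seq libraries of Hepa1-6 cells, 3 per group, were grouped by the sample labels. Raw read counts, unnormalized whole numbers, were deposited by the authors for each of 56748 genes. The submitters' processing notes name CASAVA 1.8, fastp, HISAT2 2.0.5, featureCounts 1.5.0-p3, DESeq2 1.20.0 and mm10, without further settings. The strand setting of the counting is not given in the sources used here. Deposited FPKM values were counts divided by gene length and by a library total of 0.993 to 1.01 times the sum of counts. Only 2.85% of 52088 nuclear genes have the GRCm38 position in the deposited tables, so promoters came from RefSeq on GRCm38.p6 by gene name alone, and deposited positions served only to find genes that overlap in that annotation. GC content came from the longest GENCODE M21 transcript.

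TMM factors, filterByExpr and the robust quasi-likelihood test of edgeR 4.0.16 (R 4.3.3) were applied to the counts, in 1 fit of all 9 libraries with no covariate beside group. Benjamini-Hochberg adjustment ran over 14510 genes, and a call needed an adjusted p below 0.05. Alternatives were DESeq2 1.42.0 and its size factors, other count filters, the groups compared alone, GC and length offsets, the replicate number as a block, limma 3.58.1 on log2(FPKM + 1) and log2(FPKM + 0.1), glmTreat against 0.5, and leaving out each library. Nothing in the labels says that libraries of a group came from separate cultures, so p values measure the spread between these libraries, which may be technical. Same-numbered libraries of different groups did not deviate together (Pearson's r of -0.446 to 0.0190 across genes), so the numbers were not taken as pairs.

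The 9 genes and the 3 lists of other genes were chosen with earlier results of these data known. From each list the text names the called genes with the 4 smallest adjusted p in each drug comparison and always Sqle, Lbr, Insig1 and Srebf2, and it names the 5 genes most like the 9 in pattern. Faxdc2 was not found by name and was not analysed here. Other items covered by the lists are not reported here, and counts over the lists leave them out.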

Additional observations from a re-analysis of the deposited data

Results flagged for a closer look

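The log2(fold change) against control differed between the drugs for 5 of the 38 genes tested among the enzymes and lists, 1 higher and 4 lower by the direct edgeR test of tiamulin against lefamulin, beside 2.85% and 2.05% of all genes. Hsd17b7 was lower under tiamulin by a log2 difference of -0.54 (adjusted p = 0.00104), and the 3 tiamulin libraries were all below the 3 lefamulin libraries. Erg28, the scaffold of the same demethylation step, differed by -0.31 (adjusted p = 0.0398), and Cyb5b by -0.23 (adjusted p = 0.024). Insig1 differed by -0.24 (adjusted p = 0.0486). Npc1 differed in the other direction, by 0.42 (adjusted p = 0.00104), and was the 1 gene of the 5 that was higher under tiamulin. The calls of Erg28, Cyb5b and Insig1 were lost with the replicate block, with the groups compared alone and without several single libraries, while those of Hsd17b7 and Npc1 were kept in these fits.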

How the results depend on the processing

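The numbers of enzymes called higher or lower moved by over 1.5 times in 6 recomputed counts. Against a log2 bound of 0.5 (glmTreat), 1 enzyme stayed higher under lefamulin (Lss), 1 under tiamulin (Dhcr7), and 0 were lower between the drugs. With GC and length offsets, alone or with the replicate block, 3 were lower between the drugs. Leaving out 1 library gave 8 to 9 higher under lefamulin, 6 to 8 under tiamulin and 1 to 2 lower between the drugs, the 2 without tiamulin 2. Under tiamulin, DESeq2 and the fit without a filter each called 7. With the replicate block, 8 enzymes were higher under lefamulin (Ebp at adjusted p = 0.063), 6 under tiamulin, and 1 was lower between the drugs. It also ended the direct calls of Erg28, Cyb5b and Insig1, as did comparing the groups alone (adjusted p = 0.0883, 0.0778 and 0.116). Limma ended that of Insig1 (0.0615 and 0.062), and the fit without a filter that of Erg28 (0.0857). Small differences between the drugs changed sign. Nsdhl was 0.0061 with GC and length offsets and 0.0060 with the block added, and Dhcr7 -0.017 in both. When libraries were left out, Tm7sf2 ranged from -0.16 to 0.057, Sc5d from -0.11 to 0.0046 and Dhcr7 from -0.017 to 0.10 between the drugs, and Lbr from -0.025 to 0.039 and Srebf2 from -0.010 to 0.22 under tiamulin. The cause was not tested. Over all genes, calls under lefamulin, under tiamulin and between the drugs numbered 1900, 2383 and 711. They were 3425, 3897 and 1904 with GC and length offsets, 3127 (lefamulin) and 1612 (between) with the block added, 263 (between) with the block alone, 3510 (lefamulin) and 280 (between) with groups compared alone, and 128, 177 and 5 with glmTreat. Between the drugs they were 1076 with DESeq2, 1271 without a filter, and 443 and 444 with limma on FPKM. Leaving out 1 library gave 993 to 3708, 1462 to 3433 and 204 to 1309. With 3 libraries a group, low-count genes such as Tm7sf2 have wide intervals, which leave room for differences between the drugs.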

Other observations

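Protein-coding genes with a mean count of at least 100 numbered 9618, the 9 enzymes included. Outside the enzymes, those whose levels over the 9 libraries were most like the mean of the 9 enzymes were Scd1, Tollip, Cyp3a13, Atp6v0b and Flrt3. Their Pearson's r was 0.991, 0.990, 0.989, 0.989 and 0.988. The 9 libraries fall into 3 treatment groups and share them with the enzymes, so r is a description here. Scd1, the desaturase that makes monounsaturated fatty acids, had 457 CPM in controls, 666 after lefamulin and 576 after tiamulin (means of 3), with a log2(fold change) of 0.54 and 0.33. Flrt3, a cell surface protein with leucine-rich repeats, had the steepest change of the 5, from 22.7 CPM in controls to 59.5 and 45.5. Cyp3a13, a P450 of the family that handles drugs, had 19.7 CPM in controls, 39.0 after lefamulin and 33.9 after tiamulin. Atp6v0b, a subunit of the vacuolar proton pump, changed by 0.39 and 0.25 on the log2 scale. Tollip, an adaptor of Toll-like receptor signalling, rose by 0.22 under lefamulin (edgeR adjusted p = 0.012) and had 0.13 under tiamulin (adjusted p = 0.093), which missed the threshold.

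Among the 9 enzymes, Ebp (r = 0.811) and Hsd17b7 (r = 0.869) followed the common mean least and Cyp51 (r = 0.980) most. Pairs of enzymes ranged from 0.559 for Tm7sf2 and Ebp to 0.977 for Cyp51 and Nsdhl.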
